A study of Saccharomyces cerevisiae with 12 samples.

Results

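The transcriptome of a *Saccharomyces cerevisiae* strain lacking both *TUP1* and *CYC8* was set against that of the strain lacking *CYC8* alone, which asks what removing *TUP1* changes once *CYC8* is already deleted. All 6400 named genes of the joined count tables belong to this comparison, and 5995 of them held enough counts to be tested. The *tup1 cyc8* strain (*tup1*Δ::KanMX4 *cyc8*Δ::URA3) and the *cyc8* strain (*cyc8*Δ::KanMX4) gave 3 libraries each, 6 of the 12 in the series. The *tup1* strain and the wt, 3 libraries each, were used for a second comparison that shares no library with the first. All 4 strains derive from BY4741, a MATa haploid with the alleles *his3*Δ1, *leu2*Δ0, *met15*Δ0 and *ura3*Δ0, and each is 1 strain sampled as 3 biological replicates. Cultures were grown in rich medium with 2% glucose and collected in log phase, at an OD600 of 0.6 to 0.8, and total RNA depleted of rRNA was sequenced with strand information.

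Tup1p and Cyc8p (also called Ssn6p) form a corepressor that DNA-binding repressors bring to promoters, where it keeps genes for sugar use, the anaerobic cell wall, flocculation, stress and mating silent during growth on glucose. Cyc8p, a protein of tetratricopeptide repeats, is regarded as the part that contacts the DNA-binding repressors. Tup1p, a WD40 protein, carries contacts with histones, deacetylases and the transcription machinery.

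The targeted genes were examined first. Levels are given as CPM (counts scaled to a common library depth) on library sizes scaled by TMM, a measure that is not divided by gene length and therefore compares strains, not genes. *TUP1* (chromosome III, 260311 to 262452 in R64) had 19.7, 21.5 and 19.5 CPM in *tup1 cyc8*, against 438, 416 and 363 CPM in *cyc8*. The difference, log2 fold change -4.32 ± 0.13, adjusted p = 4.5e-10, is *tup1 cyc8* over *cyc8* with its standard error (n = 3 each), and p is Benjamini-Hochberg adjusted over all genes in edgeR's quasi-likelihood test. The groups did not overlap, and wt cells had 468 ± 12.2 CPM. *URA3*, the marker of the *cyc8* allele in the double mutant, had 48.2, 45.98 and 39.2 CPM in *tup1 cyc8*, and 0, 2 and 2 counts in the *cyc8* libraries. Its level in *tup1 cyc8* was at least 215-fold higher, set against a floor of 3 counts per library. *LEU2* and *MET17* (*MET15*) had no count in any of the 12 libraries.

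*CYC8* itself (chromosome II, 462870 to 465770, minus strand) was not equally absent from the strains compared. It had 79.3, 88.3 and 84.95 CPM in *tup1 cyc8*, against 7.31, 8.85 and 9.33 CPM in *cyc8* (log2 fold change 3.31 ± 0.14, adjusted p = 1.3e-08). The *tup1 cyc8* libraries, all above the *cyc8* libraries, stood at 44.7% of the wt mean of 188 CPM, and the *cyc8* libraries at 4.52%. A pair of oligos is listed by the study for deleting *CYC8*, and whether they made the allele of this strain is not stated. Each carries 40 bases that match the genome once, printed here 5′ to 3′ with all matched bases in capitals.
CYC8_PRS_F, chrII:465641-465680, minus strand: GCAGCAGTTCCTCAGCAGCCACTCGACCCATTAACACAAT
CYC8_PRS_R, chrII:463323-463362, plus strand: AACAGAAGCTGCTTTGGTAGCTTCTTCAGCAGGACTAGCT
The forward arm covers bases 91 to 130 of the coding sequence and the reverse arm bases 2409 to 2448. Between them lie 2278 of 2901 coding bases (78.5%). A deletion made with them would leave 130 bases at the start and 493 at the end. Between *tup1 cyc8* and *cyc8*, the loss of *TUP1*, the exchange of one *cyc8* disruption for another and the presence of *URA3* cannot be told apart. Directly beside *TUP1*, *TRX3* and *YCR085W* had log2 fold changes of 0.13 and -0.25, and beside *CYC8*, *RAD16* and *SUS1* had -0.18 and 0.22. *TIM9* and *GEA2* flank the native *URA3* locus, which is *ura3*Δ0 in every strain and does not hold the marker. Their log2 fold changes were -0.38 and -0.06. None of these genes passed the test at 0.01.

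Named genes took 12643361 to 17467516 counts in the 6 libraries. Replicate 1 of *cyc8* stood apart: its root mean square log2 difference was 0.506 from replicate 2 and 0.500 from replicate 3, against 0.211 between those, and 0.309 to 0.369 among the *tup1 cyc8* libraries. Without it more genes were called, as given below for the totals and the main lists. Markers of the mating type went with the label: the summed level of 7 a-specific genes was 1192 to 1725 CPM in *tup1 cyc8* and 796 to 879 CPM in *cyc8*, while 4 alpha-specific genes summed to 37.2 to 42.5 CPM and 26.7 to 30.9 CPM. In wt, also MATa, the sums were 1478 to 1766 CPM and 35.2 to 37.6 CPM. Of the a-specific genes *MFA1* and *ASG7* overlapped between *tup1 cyc8* and *cyc8*, and *SAG1* made up most of the alpha-specific sum.

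Fewer genes were lower than higher in *tup1 cyc8*. At an adjusted p of at most 0.01, 185 genes were higher in *tup1 cyc8* (3.09% of the genes tested) and 48 lower (0.801%). With a limit of 2-fold as well, 131 were higher (2.19%) and 11 lower (0.183%). In the 185 and the 48 genes the 3 libraries of the strains did not overlap, a pattern shown in the upward direction by 15.1% and in the downward direction by 13.2% of all genes tested. The called increases had a median log2 fold change of 1.32 and the called decreases one of -0.80. Library size alone in place of TMM, which moves the median of all genes by -0.11, gave 155 higher and 100 lower. Without *cyc8* replicate 1 there were 397 higher and 302 lower, among them 169 of the 185 and all 48, so the number of decreases in particular rests on that library. Without any other library the counts were 119 to 164 higher and 20 to 54 lower.

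**Figure D1:**
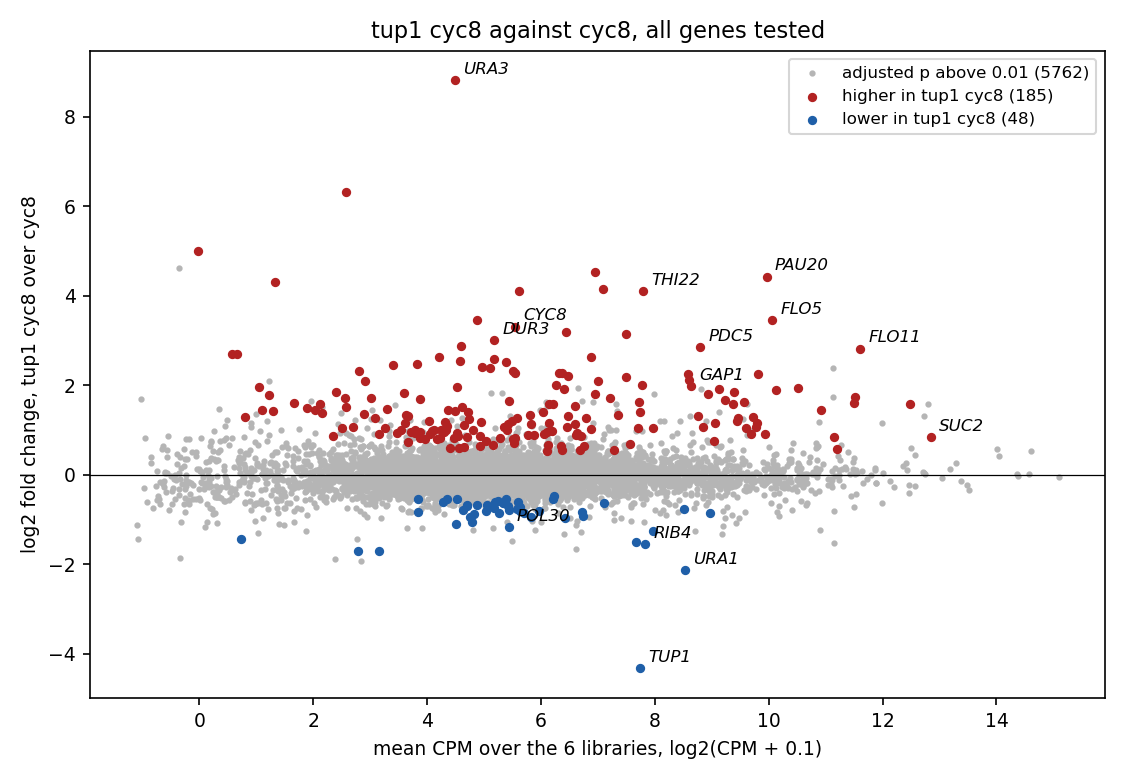
Log2 fold change of tup1 cyc8 over cyc8 against the mean level over the 6 libraries, on a scale of log2(CPM + 0.1), 1 point per gene tested. The 185 genes called higher are red and the 48 called lower blue; URA3 at 8.82 and TUP1 at -4.32 mark the strain difference.

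The flocculins were the family with the largest share of members called. These are cell wall lectins that bind mannose chains of neighbouring cells (*FLO1*, *FLO5*, *FLO9*, *FLO10*) or promote invasive growth and biofilms (*FLO11*). Of 5 tested, 4 rose, and *FLO10* lay on the same side of 0. *FLO11* had 5446, 5482 and 5506 CPM in *tup1 cyc8*, against 442, 1056 and 831 CPM in *cyc8* (log2 fold change 2.82 ± 0.29, adjusted p = 4.6e-05). Its *tup1 cyc8* libraries were nearly equal and all far above *cyc8*, while the means were 113 ± 32.8 CPM in *tup1* and 9.80 ± 1.86 CPM in wt. *FLO5* had 2380.1, 1563 and 1924 CPM in *tup1 cyc8*, against 184, 182 and 171 CPM in *cyc8* (log2 fold change 3.45 ± 0.18, adjusted p = 5.8e-08). *FLO1* had 3089.7, 2411 and 2958 CPM in *tup1 cyc8*, against 606, 1254 and 1225 CPM in *cyc8* (log2 fold change 1.46 ± 0.24, adjusted p = 0.0021). The strains did not overlap for *FLO1* either, but *cyc8* replicate 1 lay below the other *cyc8* libraries, and the adjusted p reached 0.019 in a fit of the 6 libraries alone. *FLO1* was not called without *tup1 cyc8* replicate 1 or 3 (adjusted p up to 0.012). *FLO9* rose least (log2 fold change 0.91 ± 0.13, adjusted p = 0.00072). Summed over the family, the level was 11060.0 to 13310.0 CPM in *tup1 cyc8* and 2032 to 3564 CPM in *cyc8*. *FLO1*, *FLO5* and *FLO9* have 64.6%, 56.2% and 73.2% of their 31-base stretches repeated elsewhere in the genome. Only uniquely assigned reads were counted, so their levels may rest on the parts that differ between copies and be too low.

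The seripauperins and the DAN and TIR mannoproteins, serine-rich wall proteins that yeast makes under anaerobic or cold conditions, lay to one side. All 27 tested had a log2 fold change above 0 (median 1.52, against -0.00204 over all genes tested), 12 rose and none fell (0 lower at an unadjusted p under 0.05 and 0 with DESeq2). Without *cyc8* replicate 1 the same 12 and a further 3 were called, and without any other library 10 to 15. *PAU20* had 2453, 1223 and 2041 CPM in *tup1 cyc8*, against 123, 76.2 and 66.2 CPM in *cyc8* (log2 fold change 4.43 ± 0.37, adjusted p = 8.4e-06). Every *tup1 cyc8* library was far above every *cyc8* library, and *tup1* cells had 109.6 ± 7.06 CPM and wt cells 0.318 ± 0.309 CPM. *PAU17* had 284, 179.6 and 306 CPM in *tup1 cyc8*, against 13.6, 14.3 and 15.5 CPM in *cyc8* (log2 fold change 4.15 ± 0.22, adjusted p = 6.4e-08). *DAN4* had 413, 239 and 319 CPM in *tup1 cyc8*, against 39.7, 36.6 and 33.4 CPM in *cyc8* (log2 fold change 3.15 ± 0.21, adjusted p = 5.7e-07). *TIR2* had 1775, 1152 and 1514 CPM in *tup1 cyc8*, against 425, 257 and 250.4 CPM in *cyc8* (log2 fold change 2.25 ± 0.25, adjusted p = 6.8e-05), and *TIR3* and *TIR4* changed by 2.13 and 1.95. Both *TIR2* and *TIR3* were higher in *cyc8* than in wt by their means and higher again in *tup1 cyc8*, with wt means of 4.13 CPM for *TIR2* and 24.96 CPM for *TIR3*. *PAU15*, *PAU19* and *PAU11* (log2 fold changes 4.10, 4.52 and 3.46) have 82.9%, 79.4% and 75.4% of their 31-base stretches repeated elsewhere in the genome, as *PAU20* has 76.3%. With only uniquely assigned reads counted, the levels of such near-identical copies may be too low. For *TIR2* and *TIR3* the repeated shares are 1.8% and 1.5%. *PDR11*, a transporter for sterol uptake without oxygen, rose by 1.06 (adjusted p = 0.00015). It belongs to a separate list of 44 ergosterol synthesis and hypoxic genes, which did not move to one side. There 1 rose (2.27%, against 3.09% of all genes tested) and 1, *IDI1*, fell. The median log2 fold change of that list was 0.05, with 26 genes above 0 and 18 below.

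**Figure D2:**
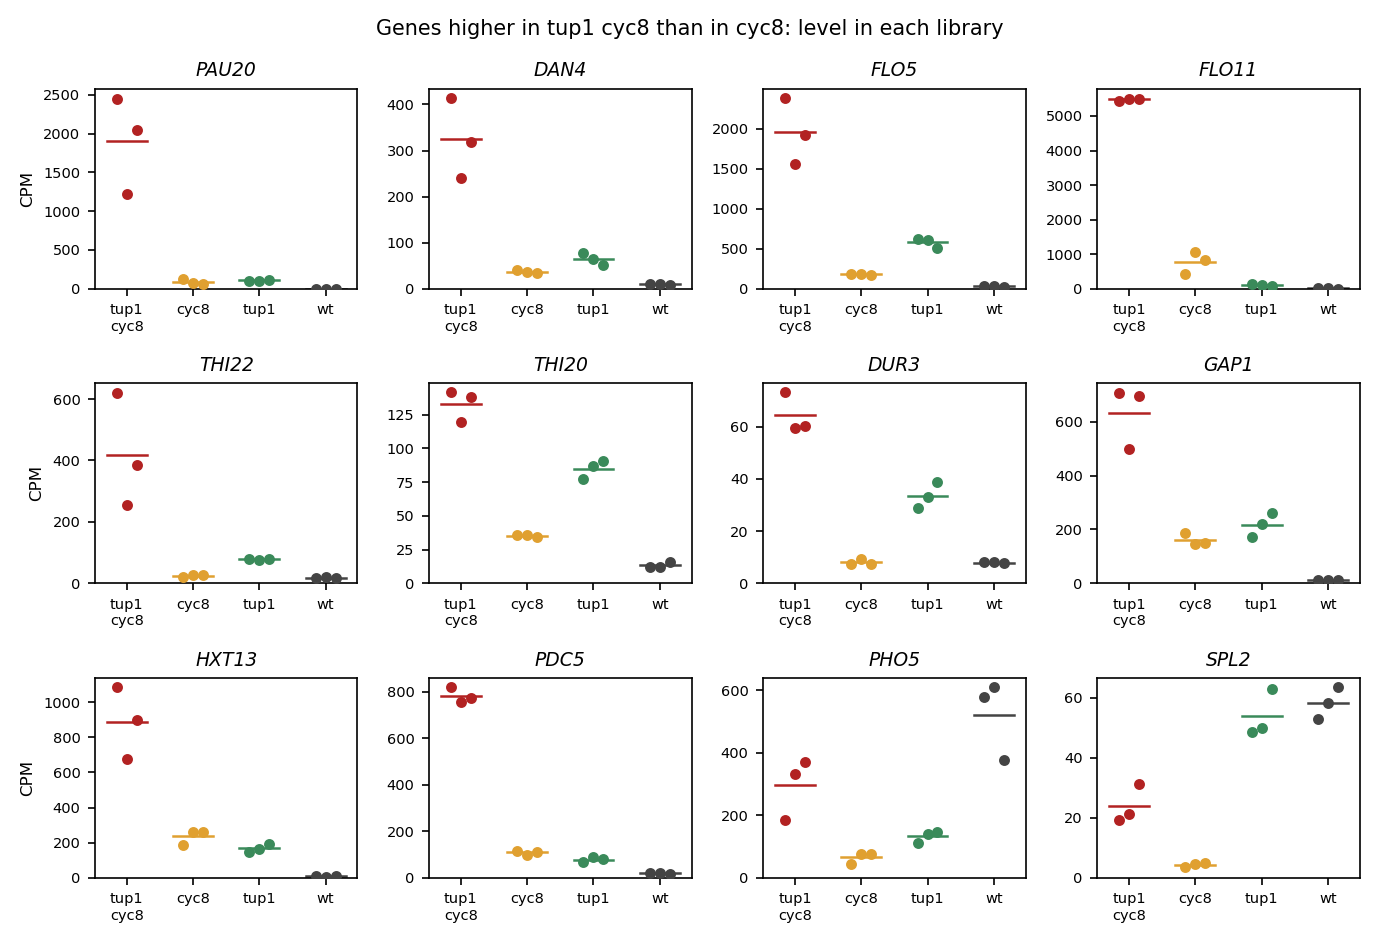
Level (CPM, linear axis from 0) of 12 genes called higher in tup1 cyc8 than in cyc8, in each of the 3 libraries (points, mean as a line) of tup1 cyc8, cyc8, tup1 and wt. The tup1 cyc8 libraries lie above the cyc8 libraries in every panel, and the means of PHO5 and SPL2 are highest in wt, at 522 and 58.2 CPM.

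Some genes for taking up and splitting sugars were higher in the double mutant. Of 27 hexose transporter and glucose sensing genes 8 rose, among them the seldom used transporters *HXT13* (log2 fold change 1.91 ± 0.22, adjusted p = 0.00011), *HXT15*, *HXT17* and *HXT8*, and the invertase gene *SUC2*. *HXT13* had 1083, 675 and 901 CPM in *tup1 cyc8*, against 184, 259 and 263 CPM in *cyc8*, and its groups were separate. *HXT13*, *HXT15* and *HXT17* have 52.7%, 96.5% and 51.9% of their 31-base stretches repeated elsewhere, so their values may not be independent of related copies. *HXT8*, of which no 31-base stretch is repeated, had 95.6, 60.8 and 83.3 CPM in *tup1 cyc8*, against 29.9, 32.9 and 32.6 CPM in *cyc8* (log2 fold change 1.33 ± 0.17, adjusted p = 0.00024). *SUC2*, whose product splits sucrose outside the cell, had 10202, 8285 and 9898 CPM in *tup1 cyc8*, against 6115, 4628 and 5001 CPM in *cyc8*, with 1552 ± 165 CPM in *tup1* and 122 ± 4.09 CPM in wt. Its change was smaller (log2 fold change 0.85 ± 0.14, adjusted p = 0.0021), and the adjusted p reached 0.028 in a fit of the 6 libraries alone. Without *cyc8* replicate 1 the list had 6 increases, 5 of them among the 8, and 2 decreases, and without any other library 4 to 6 increases. Of 14 maltose and isomaltose genes 4 rose, the isomaltases *IMA5* (log2 fold change 2.01 ± 0.20, adjusted p = 3.4e-05), *IMA1* (1.21) and *IMA2* (1.06) and the maltose permease *MAL11* (log2 fold change 1.53 ± 0.30, adjusted p = 0.0071). *MAL11* had 218, 97.1 and 116 CPM in *tup1 cyc8*, against 31.7, 58.6 and 59.5 CPM in *cyc8*. Without any 1 library 2 to 4 of the maltose and isomaltose genes were called higher. *MAL11* was not called without *tup1 cyc8* replicate 1 or 3 or *cyc8* replicate 1, 2 or 3 (adjusted p up to 0.026). *IMA2* was not called without *tup1 cyc8* replicate 3 or *cyc8* replicate 2 or 3 (adjusted p up to 0.014), and 72.5% of its stretches are repeated. *SUC2* was not called without *tup1 cyc8* replicate 1 or 3 or *cyc8* replicate 2 or 3 (adjusted p up to 0.02). The mannitol dehydrogenase genes *DSF1* and *MAN2*, near-identical copies with 70.0% of their stretches repeated, rose by 1.67 and 1.26, and were named after their values were seen.

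Thiamine genes formed a further group, with 7 of 30 thiamine and biotin genes higher and none lower (0 at an unadjusted p under 0.05 and 0 with DESeq2, median log2 fold change 0.48). *THI22*, related in sequence to the kinases of thiamine precursor synthesis, had 620.2, 253 and 384 CPM in *tup1 cyc8*, against 19.9, 26.00 and 27.5 CPM in *cyc8* (log2 fold change 4.10 ± 0.29, adjusted p = 1.1e-06). *THI20*, a kinase of hydroxymethylpyrimidine, had 142, 119 and 138 CPM in *tup1 cyc8*, against 35.5, 36.1 and 34.2 CPM in *cyc8* (log2 fold change 1.91 ± 0.13, adjusted p = 6.1e-07). *THI6*, which joins the pyrimidine and thiazole parts of the vitamin, rose by 1.06, the transporter gene *THI72* by 0.87, the thiazole synthase gene *THI4* by 1.57 and *PET18* by 1.43. *PHO3*, the acid phosphatase that frees thiamine from its phosphate outside the cell, had 1704, 791 and 1184 CPM in *tup1 cyc8*, against 585, 542 and 527 CPM in *cyc8* (log2 fold change 1.15 ± 0.22, adjusted p = 0.0051). It lies beside *PHO5*, and 15.4% of its stretches are repeated. *PHO3* was not called without *tup1 cyc8* replicate 1 or 3 or *cyc8* replicate 2 or 3 (adjusted p up to 0.03). The same 7 genes were called without *cyc8* replicate 1.

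Several phosphate starvation genes differed from those above in that *cyc8* cells had less of them than wt. Of 25 tested, 6 rose. Leaving out *cyc8* replicate 1 gave 8 increases and 2 decreases, and without any other library 2 to 5 increases. *SPL2*, a small protein that regulates low-affinity phosphate uptake, had 19.2, 21.3 and 31.1 CPM in *tup1 cyc8*, against 3.46, 4.54 and 4.81 CPM in *cyc8* (log2 fold change 2.48 ± 0.21, adjusted p = 7.6e-06), and 53.8 ± 7.93 CPM in *tup1* and 58.2 ± 5.25 CPM in wt. *PHO5*, the repressible acid phosphatase, had 185, 333 and 369 CPM in *tup1 cyc8*, against 44.8, 75.5 and 75.7 CPM in *cyc8* (log2 fold change 2.18 ± 0.28, adjusted p = 0.00031), and 132 ± 19.3 CPM in *tup1* and 522 ± 126 CPM in wt. *PHO84*, the high-affinity transporter, had 898, 1103 and 1207 CPM in *tup1 cyc8*, against 447, 602 and 664 CPM in *cyc8* (log2 fold change 0.91 ± 0.17, adjusted p = 0.0047). *PHO84* overlaps the annotated non-coding gene *YNCM0001W* over 1764 bases, and its means were 2667 CPM in *tup1* and 1846 CPM in wt. In all of *SPL2*, *PHO5* and *PHO84* the *tup1 cyc8* mean lay between those of *cyc8* and wt. *PHO12* rose by 1.64, with 91.6% of its stretches repeated. *GIT1*, the glycerophosphoinositol permease, rose by 1.00 and had 19.8 ± 4.01 CPM in *tup1* and 2.86 ± 0.351 CPM in wt, the lowest of the 4 strains in wt. *PHO12* was not called without *tup1 cyc8* replicate 3 or *cyc8* replicate 2 or 3 (adjusted p up to 0.019). *GIT1* was not called without *tup1 cyc8* replicate 1 or 3 (adjusted p up to 0.013).

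Among nitrogen genes the urea pathway stood out. *DUR3*, the plasma membrane urea transporter, had 73.2, 59.4 and 60.2 CPM in *tup1 cyc8*, against 7.37, 9.24 and 7.49 CPM in *cyc8* (log2 fold change 3.00 ± 0.15, adjusted p = 4.3e-08), while wt had 7.91 ± 0.224 CPM, close to *cyc8*. *DUR1,2*, urea amidolyase, had 371, 277 and 308 CPM in *tup1 cyc8*, against 79.4, 119 and 113 CPM in *cyc8* (log2 fold change 1.62 ± 0.17, adjusted p = 6.5e-05). *GAP1*, the general amino acid permease, had 708, 500.1 and 694 CPM in *tup1 cyc8*, against 185, 146 and 149.96 CPM in *cyc8* (log2 fold change 1.98 ± 0.18, adjusted p = 1.3e-05). These were the 3 genes that rose among 33 of nitrogen catabolite repression, where 4 rose and 3 fell without *cyc8* replicate 1. *AGP1*, another broad amino acid permease, rose by 1.41 (adjusted p = 4e-05).

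A few members of other lists also rose, among them 2 of 36 glycolysis and pentose phosphate genes and 2 of 16 zinc and copper genes. *PDC5*, a pyruvate decarboxylase isoenzyme, had 819, 754 and 771 CPM in *tup1 cyc8*, against 116, 96.8 and 113 CPM in *cyc8* (log2 fold change 2.85 ± 0.13, adjusted p = 3.1e-08), and *TDH1*, the glyceraldehyde-3-phosphate dehydrogenase isoenzyme, had 8792, 8359 and 8686 CPM in *tup1 cyc8*, against 2108, 3189 and 3357 CPM in *cyc8* (log2 fold change 1.58 ± 0.28, adjusted p = 0.0036). Among 29 multidrug and membrane transport genes 5 rose and 1, *AQR1*, fell, the increases including *PDR5*, the main drug efflux pump (log2 fold change 1.08 ± 0.13, adjusted p = 0.00021), *QDR2* (0.93), *RTA1* (2.27) and the aquaporin gene *AQY2* (2.54). *AQY2* and the adjoining *YLL053C* overlap and moved alike, *YLL053C* by 2.62. *ZRT1*, the high-affinity zinc transporter, had 720.1, 644 and 537 CPM in *tup1 cyc8*, against 162, 111 and 125 CPM in *cyc8* (log2 fold change 2.25 ± 0.40, adjusted p = 0.0036). *ENB1*, the enterobactin transporter, was the called member of 23 iron genes (log2 fold change 1.81 ± 0.28, adjusted p = 0.0012), of which 4 were called higher without *cyc8* replicate 1. The iron gene *FIT2* had 2383, 3804 and 4137 CPM in *tup1 cyc8*, against 2158, 486 and 454 CPM in *cyc8*, where *cyc8* replicate 1 lay far above the other *cyc8* libraries, and did not pass the test (log2 fold change 1.74, adjusted p = 0.10). Without that library its log2 fold change was 2.85 (adjusted p = 0.0048). *STE2*, the alpha-factor receptor of MATa cells, had 414, 297 and 302 CPM in *tup1 cyc8*, against 168, 159 and 164 CPM in *cyc8* (log2 fold change 1.04 ± 0.13, adjusted p = 0.00029), with 554 ± 35.6 CPM in *tup1* and 499.7 ± 34.3 CPM in wt. *SST2*, a negative regulator of the same pathway, rose by 0.85 and *PRM4* by 0.80, 3 of 32 mating genes in all. *GSY1* (glycogen synthase), *SPS4* and *SPS100* (sporulation), *SSA3* (Hsp70), *HAL1* (salt tolerance), *YCT1* (cysteine transport), *YPS6* (yapsin) and *GPX2* (glutathione peroxidase) rose by 2.01, 2.11, 2.09, 1.39, 1.13, 1.06, 1.34 and 1.34. Of the other markers of sporulating cells, *DIT1* ranged over 635 to 909.8 CPM in *tup1 cyc8* and 112 to 409 CPM in *cyc8*, while *SPO11* overlapped, with 1.72 to 3.08 CPM and 2.36 to 2.76 CPM, and the meiosis and sporulation list had a median log2 fold change of 0.04. In the lists that hold *GSY1* to *GPX2*, 1 of 23 glycogen, 3 of 51 sporulation, 1 of 30 heat shock and 2 of 23 osmotic stress genes rose. So did 1 of 34 methionine and sulfate, 3 of 40 aerobic cell wall and 2 of 35 antioxidant genes. Of all genes tested 3.09% rose. In the methionine and sulfate list 25 of 34 lay below 0, with a median of -0.24. There 9 were lower and 1 higher at an unadjusted p under 0.05. *TDH1* was not called without *tup1 cyc8* replicate 1, 2 or 3 or *cyc8* replicate 2 or 3 (adjusted p up to 0.019). *ZRT1* was not called without *tup1 cyc8* replicate 1 or *cyc8* replicate 2 or 3 (adjusted p up to 0.024). *GSY1* was not called without *tup1 cyc8* replicate 1 or 3 or *cyc8* replicate 2 or 3 (adjusted p up to 0.032). *SPS100* was not called without *tup1 cyc8* replicate 1, 2 or 3 or *cyc8* replicate 3 (adjusted p up to 0.02). *SSA3* was not called without *cyc8* replicate 2 or 3 (adjusted p up to 0.029). *SST2* was not called without *tup1 cyc8* replicate 1 or 3 or *cyc8* replicate 3 (adjusted p up to 0.035). *PRM4* was not called without *tup1 cyc8* replicate 1 or *cyc8* replicate 2 or 3 (adjusted p up to 0.013). For some of these genes wt was highest of the strains compared here: *PDR5* had means of 563, 1188 and 1836 CPM in *cyc8*, *tup1 cyc8* and wt. The same means were 54.7, 192 and 228 CPM for *ENB1* and 6.89, 17.6 and 62.2 CPM for *GPX2*. Of the 146 increases other than Ty genes, *CYC8* and *URA3*, 44 had a lower mean in *cyc8* than in wt and 102 a higher one.

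The 12 largest increases among well-expressed genes with little repeated sequence were *URA3*, *THI22*, *CYC8*, *DUR3*, *PDC5*, *YHR210C*, *YLL053C*, *AQY2*, *SPL2*, *YER188W*, *YJL218W* and *RTA1*. *YHR210C*, annotated as an aldose 1-epimerase family protein, had 294, 134 and 177 CPM in *tup1 cyc8*, against 34.3, 31.2 and 32.2 CPM in *cyc8* (log2 fold change 2.63 ± 0.23, adjusted p = 1.3e-05). *YER188W*, uncharacterised, rose by 2.41 and *YJL218W*, an acetyltransferase by annotation, by 2.40. Outside that rule, and named after their values were seen, *YHB1* (flavohaemoglobin) had 1227, 929 and 1014 CPM in *tup1 cyc8*, against 343, 269 and 265 CPM in *cyc8* (log2 fold change 1.85 ± 0.18, adjusted p = 3.2e-05), and *PRY1*, a secreted sterol-binding protein, had 5574, 3132 and 4277 CPM in *tup1 cyc8*, against 1748, 1325 and 1206 CPM in *cyc8* (log2 fold change 1.60 ± 0.23, adjusted p = 0.0007). The groups of both genes were separate.

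**Figure D3:**
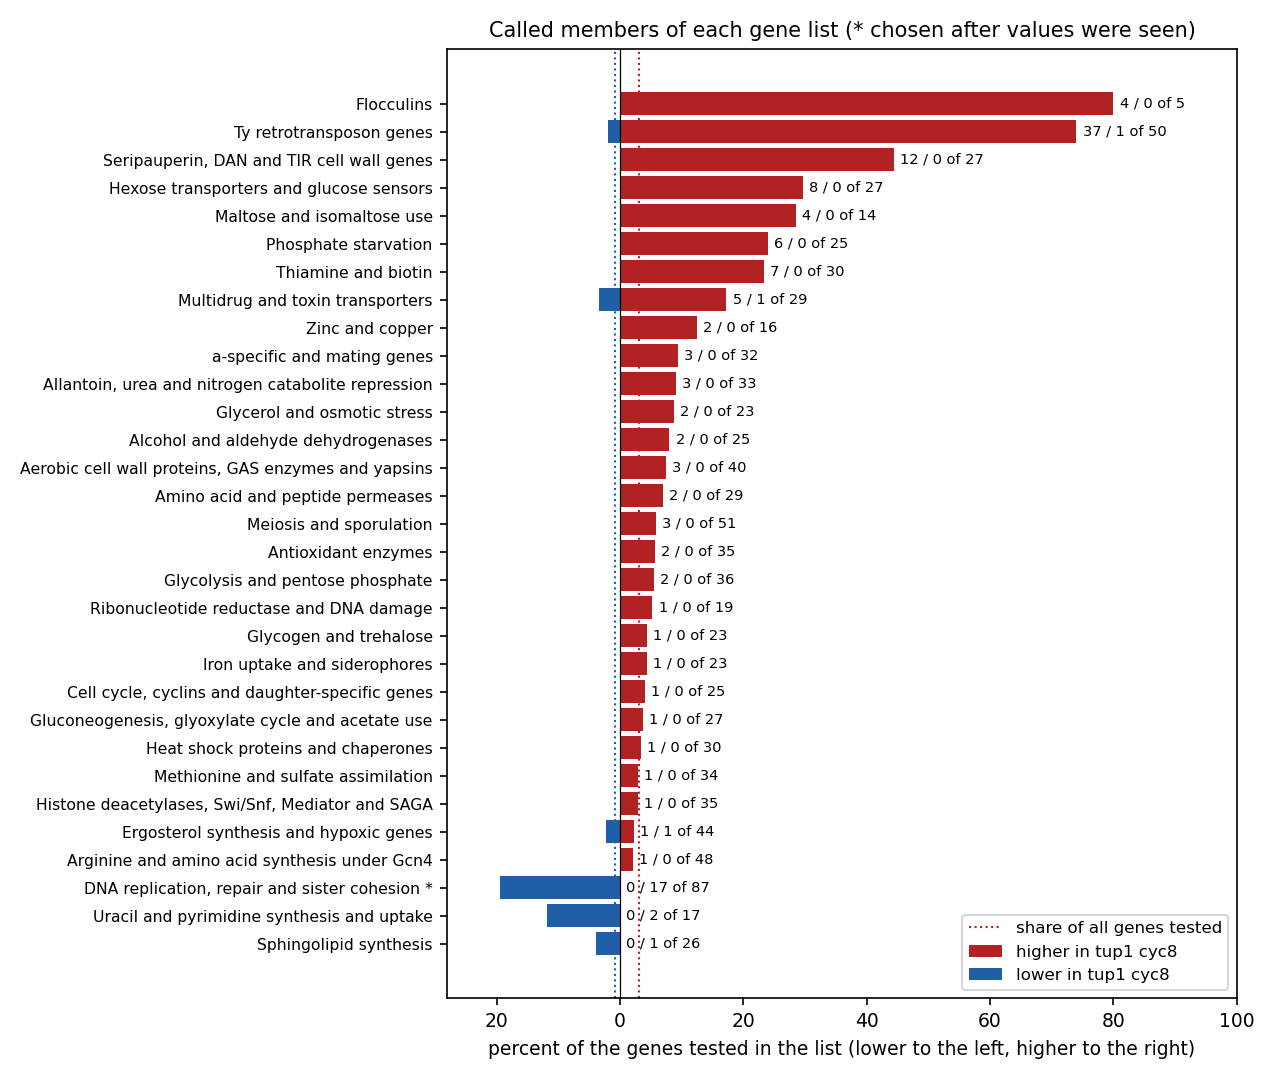
Percent of each list's tested genes called higher (red, right) or lower (blue, left) in tup1 cyc8, with the numbers higher / lower of tested beside the bars and the shares of all genes tested as dotted lines. Flocculins (4 of 5), Ty genes (37 of 50) and seripauperin, DAN and TIR genes (12 of 27) have the longest bars; the 11 lists without a called gene are not drawn.

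Ty retrotransposon genes made up 37 of the 185 increases. Ty elements are long terminal repeat retrotransposons whose genomic copies carry overlapping *gag* and *pol* reading frames and move through an RNA intermediate. Of 50 annotated *gag* or *gag-pol* genes tested, 37 rose and 1, *YJR027W*, fell (-1.70), with a median log2 fold change of 1.43 over the list. The summed level over all 91 such genes was 1142, 1272 and 1269 CPM in *tup1 cyc8*, against 435, 402 and 410.1 CPM in *cyc8*. In *tup1* it was 1137, 1226 and 1138 CPM and in wt 3394, 3573 and 3376 CPM. All 37 genes that rose had a lower mean in *cyc8* than in wt, and in 34 of them *tup1 cyc8* was closer to wt than *cyc8* was. *YPR158C-D* had 139.8, 166 and 161 CPM in *tup1 cyc8*, against 17.2, 15.6 and 18.6 CPM in *cyc8* (log2 fold change 3.18 ± 0.12, adjusted p = 6.1e-09), and 161 ± 14.3 CPM in *tup1* and 218 ± 7.56 CPM in wt. *YDR365W-B* and *YGR027W-B* rose by 2.89 and 2.33. At least 82.2% of the sequence of each called Ty gene is repeated elsewhere, and a *gag* frame overlaps most of them. Only uniquely assigned reads were counted, so the values may rest on a small part of each gene and miss much Ty RNA. Without *cyc8* replicate 1, 35 of the 37 were called.

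Many of the increases lay near chromosome ends. Of 183 called increases with a position, 49 (26.8%) lay within 25 kb of a chromosome end, against 4.69% of the 5904 tested genes with a position. Within 40 kb the shares were 34.4% and 8.25%. Leaving out the Ty genes, 48 of 146 (32.9%) lay within 25 kb. Of the 146 increases other than Ty genes, *CYC8* and *URA3*, 47 have more than 10% of their sequence repeated elsewhere, and related copies are counted separately. Of the 48 decreases none lay within 25 kb and 2 within 40 kb. No chromosome moved as a whole: the median log2 fold change per nuclear chromosome was between -0.03 and 0.08.

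The decreases were led, after *TUP1*, by *URA1*, the dihydroorotate dehydrogenase of pyrimidine synthesis. *URA1* had 113, 163 and 136 CPM in *tup1 cyc8*, against 467, 630.1 and 700.1 CPM in *cyc8* (log2 fold change -2.13 ± 0.19, adjusted p = 1.3e-05). *URA4*, dihydroorotase, had 60.7, 89.7 and 78.1 CPM in *tup1 cyc8*, against 125, 139 and 139 CPM in *cyc8* (log2 fold change -0.82 ± 0.13, adjusted p = 0.0013). Both sets of libraries were separate, and they were the 2 called genes among 17 of pyrimidine synthesis and uptake. With *cyc8* replicate 1 left out, 5 of the 17 were called lower, and in a fit of the 6 libraries alone *URA4* did not pass (adjusted p = 0.02). *URA1* and *URA4* belong with *URA3* to the genes that the activator Ppr1p controls, and the strains differ in *URA3*. The *tup1* and wt strains both lack *URA3*, and there *URA1* changed by -1.95 ± 0.19 (adjusted p = 4.4e-06) and *URA4* by -1.12 ± 0.13 (adjusted p = 2.4e-05). Whether *URA3* contributes to the decreases in *tup1 cyc8* was not tested.

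*RIB4*, lumazine synthase of riboflavin synthesis, had 114, 125 and 106 CPM in *tup1 cyc8*, against 204, 410.3 and 399 CPM in *cyc8* (log2 fold change -1.55 ± 0.22, adjusted p = 0.00055). *AQR1*, an exporter of amino acids and short-chain acids, had 134, 123 and 62.7 CPM in *tup1 cyc8*, against 313, 264 and 329.9 CPM in *cyc8* (log2 fold change -1.50 ± 0.23, adjusted p = 0.0012), and 147 ± 17.7 CPM in *tup1* and 149 ± 23.4 CPM in wt. *TNA1*, the nicotinic acid permease, had 129.5, 165 and 147 CPM in *tup1 cyc8*, against 174, 427 and 458 CPM in *cyc8* (log2 fold change -1.26 ± 0.26, adjusted p = 0.0098), with *cyc8* replicate 1 near the *tup1 cyc8* libraries, and passed the test in 7 of 14 alternative fits. *TNA1* was not called without *tup1 cyc8* replicate 1, 2 or 3 or *cyc8* replicate 2 or 3 (adjusted p up to 0.044). *BUD21*, a component of the small ribosomal subunit processome, fell by 1.05 on the log2 scale. *SUR2*, the sphinganine hydroxylase, had 383, 351 and 338 CPM in *tup1 cyc8*, against 643, 611 and 683 CPM in *cyc8* (log2 fold change -0.85 ± 0.13, adjusted p = 0.0013), and 94.9 ± 9.97 CPM in *tup1* and 167 ± 27.4 CPM in wt. Its *cyc8* libraries were highest and its *tup1* libraries lowest of the 4 strains. *IDI1*, isopentenyl diphosphate isomerase, fell by 0.63. *IDI1* was not called without *tup1 cyc8* replicate 1, 2 or 3 or *cyc8* replicate 2 or 3 (adjusted p up to 0.038). *MET6*, methionine synthase, had 612, 1834 and 994 CPM in *tup1 cyc8*, against 1882, 2947 and 3257 CPM in *cyc8* and did not pass the test at 0.01 (adjusted p = 0.032). *RNR3*, the DNA damage-inducible ribonucleotide reductase subunit, had 1221, 805 and 916 CPM in *tup1 cyc8*, against 628, 1220.3 and 1288 CPM in *cyc8*, overlapping groups (log2 fold change -0.09, adjusted p = 0.83), with 755 ± 35.8 CPM in *tup1* and 10.04 ± 1.10 CPM in wt.

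**Figure D4:**
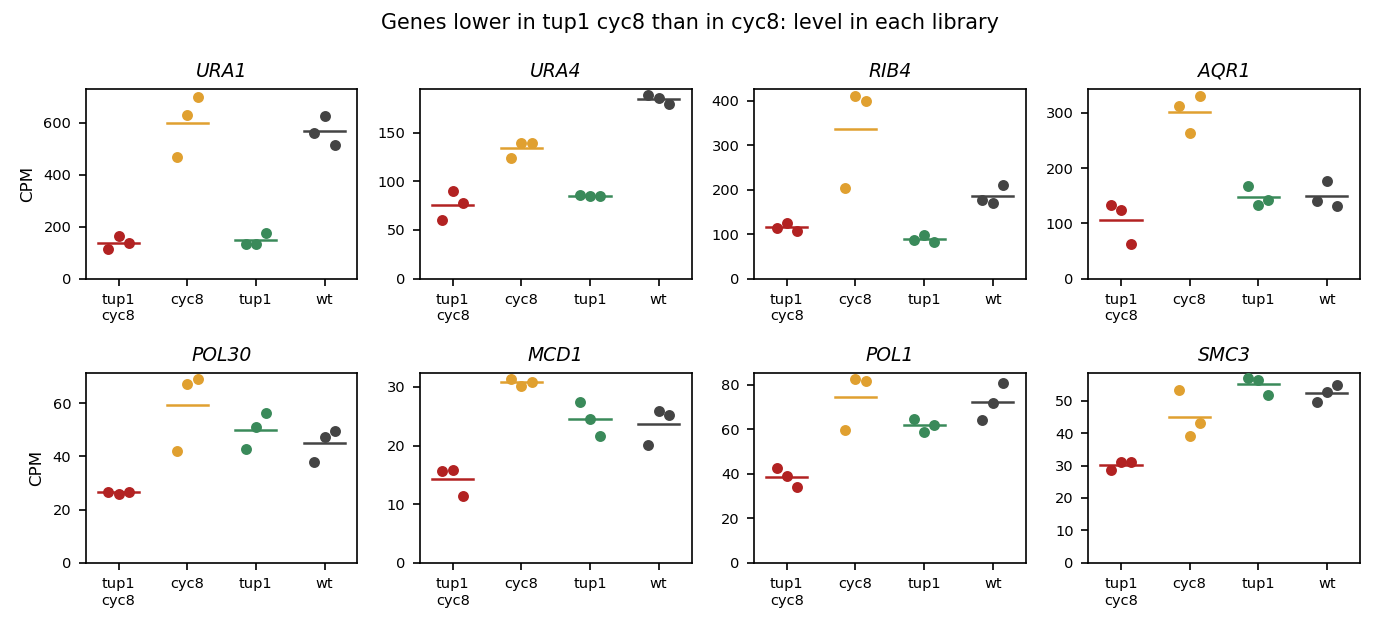
Level (CPM, linear axis from 0) of 8 genes called lower in tup1 cyc8 than in cyc8, in each of the 3 libraries (points, mean as a line) of tup1 cyc8, cyc8, tup1 and wt. URA1 and URA4 are low in both strains without TUP1, while POL30, MCD1, POL1 and SMC3 have their lowest mean in tup1 cyc8 among the 4 strains.

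Genes of DNA replication, repair and sister chromatid cohesion recurred among the decreases. A list of 87 tested genes with these functions was drawn up after the values were seen and is therefore a description without a test: 17 of the 48 decreases belong to it, none of its members rose (0 higher at an unadjusted p under 0.05 and 0 with DESeq2), and its median log2 fold change was -0.35, with 82 of 87 below 0. The functions are the polymerase alpha-primase that starts each new strand (*POL1*, *POL12*, *PRI2*), polymerase epsilon (*DPB2*), the sliding clamp and its loader (*POL30*, *RFC4*), the single-strand binding protein (*RFA1*), the flap nuclease (*RAD27*), cohesin (*MCD1*, *SMC1*, *SMC3*, *IRR1*, *PDS5*) and repair (*MSH6*, *RDH54*, *RTT107*, *OGG1*). *POL30*, proliferating cell nuclear antigen, had 26.8, 25.8 and 26.7 CPM in *tup1 cyc8*, against 42.2, 67.1 and 69.1 CPM in *cyc8* (log2 fold change -1.17 ± 0.18, adjusted p = 0.0012). *MCD1*, the cohesin kleisin, had 15.6, 15.9 and 11.4 CPM in *tup1 cyc8*, against 31.3, 30.1 and 30.9 CPM in *cyc8* (log2 fold change -1.10 ± 0.15, adjusted p = 0.00039). *POL1* had 42.8, 39.2 and 34.1 CPM in *tup1 cyc8*, against 59.5, 82.8 and 81.8 CPM in *cyc8* (log2 fold change -0.95 ± 0.14, adjusted p = 0.001). *SMC3* had 28.7, 30.99 and 31.2 CPM in *tup1 cyc8*, against 53.4, 39.00 and 42.99 CPM in *cyc8* (log2 fold change -0.58 ± 0.12, adjusted p = 0.0094). The groups did not overlap in any of the 17, whose changes ran from -1.17 to -0.53. In all 17 the *tup1 cyc8* mean was below the wt mean, and in 12 the *cyc8* mean was above it. Without *cyc8* replicate 1 the same 17 and a further 8 members were called. Without any other library 8 to 13 members were called, and 2 in a fit of the 6 libraries alone, so most of the 17 lose their call in some fits. Over the list the summed level was 2656 to 2863 CPM in *tup1 cyc8* and 3438 to 3739 CPM in *cyc8*. In RNA from whole cultures, fewer cells in one stage of the cell cycle and less RNA per cell cannot be told apart. Of 10 histone genes none was called by edgeR (2 at an unadjusted p under 0.05 and 2 with DESeq2, all lower).

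Most promoters of the replication and cohesion genes called held a short element. MBF, the Mbp1p-Swi6p factor of the G1 to S transition, is known to bind the MCB element ACGCGT, which reads the same on both strands. It occurred between 250 bases before and 50 after the start codon in 16 of the 48 decreases (33.3%), against 185 of 5904 tested genes (3.13%) and 1 of 183 increases (0.546%). Of the 17 listed genes 14 held it, and of the 31 other decreases 2. The list and the motif were both chosen after the values were seen. The share of the element among list members that were not called was not counted. These counts are therefore a description without a test. Over all 185 genes with the element the median log2 fold change was -0.24, with 140 (75.7%) below 0. In the 5719 without it these were 0.00482 and 49.4%. The 185 include the 16 decreases for which the motif was chosen. The stretches of 40 bases around the element farthest from the start codon are shown for polymerase alpha-primase, the clamp and its loader, and cohesin, because these complexes hold many of the called genes. They are written 5′ to 3′ along the gene in R64 with the element in capitals.
POL1, chrXIV:429862-429901, plus strand: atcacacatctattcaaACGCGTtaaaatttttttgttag
POL12, chrII:153810-153849, minus strand: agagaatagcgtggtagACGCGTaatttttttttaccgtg
PRI2, chrXI:353311-353350, plus strand: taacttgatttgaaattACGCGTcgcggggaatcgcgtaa
POL30, chrII:425939-425978, minus strand: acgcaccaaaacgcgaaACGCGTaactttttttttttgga
RFC4, chrXV:142669-142708, minus strand: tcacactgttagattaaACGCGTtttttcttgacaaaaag
SMC1, chrVI:119290-119329, plus strand: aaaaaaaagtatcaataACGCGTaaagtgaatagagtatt
SMC3, chrX:302944-302983, minus strand: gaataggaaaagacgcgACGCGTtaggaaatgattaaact
IRR1, chrIX:308042-308081, minus strand: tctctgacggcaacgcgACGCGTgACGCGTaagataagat
PDS5, chrXIII:420175-420214, minus strand: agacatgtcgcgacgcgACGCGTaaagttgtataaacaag
The *POL1* stretch lies 186 to 225 bases before its start codon and the *SMC3* stretch 95 to 134 bases before it. *MCD1*, *OGG1* and *RDH54* had no ACGCGT in the window. The related SCB element CNCGAAA, also chosen after the values were seen, was in 16.7% of the decreases and 13.9% of all tested genes. Of 12 other elements, searched on both strands, the largest share in the decreases was that of the Mot3p site AGGCA, at 43.8%, against 35.2% of all tested genes. It was also in 43.2% of the increases without Ty genes. Among those increases the Met31p and Met32p site TGTGGC was in 13.7%, against 7.86% of all tested genes, the GATA site GATAAG in 15.1%, against 14.7%, and the stress element AGGGG in 17.1%, against 21.7%. The Rox1p core ATTGTT was in 43.7% of all increases, 31.5% of those without Ty genes and 34.9% of all tested genes.

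Lists of growth and protein synthesis genes showed small shifts, with no call when all libraries were used. Of 86 ribosome biogenesis genes 85 had a log2 fold change below 0, with a median of -0.34, and none was called by edgeR (39 lower at an unadjusted p under 0.05, 5 lower with DESeq2). *BUD21* and the rRNA methyltransferase gene *BMT2* (-0.54), both called lower, are not in that list. The 138 cytosolic ribosomal protein genes had a median of -0.12 and no call (16 lower and 1 higher unadjusted, 3 lower with DESeq2). Small nucleolar and spliceosomal RNAs had a median of -0.28 over 75 genes (16 lower unadjusted, 1 with DESeq2), and 73 mitochondrial ribosomal protein genes one of 0.07 (2 higher and 1 lower unadjusted, 0 with DESeq2). The respiratory chain and TCA cycle (51 genes, median -0.04, 2 higher and 8 lower unadjusted, 0 with DESeq2) and the galactose regulon (11 genes, median 0.11, 2 higher unadjusted, 0 with DESeq2) gave no call either. Of 25 genes for DNA-binding repressors that recruit the complex none was called (2 higher and 4 lower unadjusted, 3 lower with DESeq2). When *cyc8* replicate 1 was left out, 2 ribosome biogenesis, 4 ribosomal protein, 4 small RNA and 3 repressor genes were called lower, 2 mitochondrial ribosomal protein genes higher and 1 respiratory gene lower. Among the repressor genes the smallest adjusted p was that of *CUP9*, with 148, 155 and 136 CPM in *tup1 cyc8*, against 188, 287 and 229 CPM in *cyc8* (adjusted p = 0.014).

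Whether the loss of *TUP1* acts alike with and without *CYC8* was asked by setting *tup1 cyc8* over *cyc8* beside *tup1* over wt. In cells with *CYC8* the loss of *TUP1* raised 632 genes (10.5%) and lowered 194 (3.24%). Of the 185 increases 93 were also higher in *tup1* than in wt, 38 were lower there, 31 of them Ty genes, and 54 passed in neither direction. Of the 48 decreases 8, *TUP1* among them, were also lower in *tup1*, 2 were higher and 38 passed in neither direction, among them 16 of the 17 replication and cohesion genes. Across 5992 genes the log2 fold changes of the comparisons correlated with a Pearson's r of 0.285 and a Spearman's rho of 0.159, as a description across genes, which are not independent replicates.

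The difference between the effects was tested as an interaction, *tup1 cyc8* over *cyc8* minus *tup1* over wt. It was above 0 in 139 genes (2.32%) and below 0 in 407 (6.79%). Among the 146 increases other than Ty genes, *TUP1*, *CYC8* and *URA3*, the effect was larger without *CYC8* in 29, smaller in 42 and not told apart in 75. Called genes were chosen by *tup1 cyc8* over *cyc8*, which is itself a part of the difference tested. For increases this choice leans the counts toward a larger effect without *CYC8*, and for decreases toward a difference below 0. *FLO1* changed by 1.46 without *CYC8* and by 6.94 with it, a difference of -5.48 (adjusted p = 2.5e-07), and *IMA2* by 1.06 and 5.19. *SUC2* changed by 0.85 and 3.67. *PAU20* changed by 4.43 without *CYC8*, and its change with *CYC8* is not sized here because the wt libraries held 0.618, 0.335 and 0 CPM. The effect was larger without *CYC8* for *THI22* (4.10 and 2.11, adjusted p = 0.0022) and *PAU17* (4.15 and 2.31, adjusted p = 0.0013). The changes had opposite signs for *PHO5* (2.18 and -1.98) and for *GPX2* (1.34 and -1.14). In 34 of the 37 Ty genes the difference was above 0. *URA1*, *FLO11*, *DAN4* and *RTA1* changed by -2.13, 2.82, 3.15 and 2.27 without *CYC8* and by -1.95, 3.52, 2.77 and 2.33 with it, and their differences did not pass the test.

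**Figure D5:**
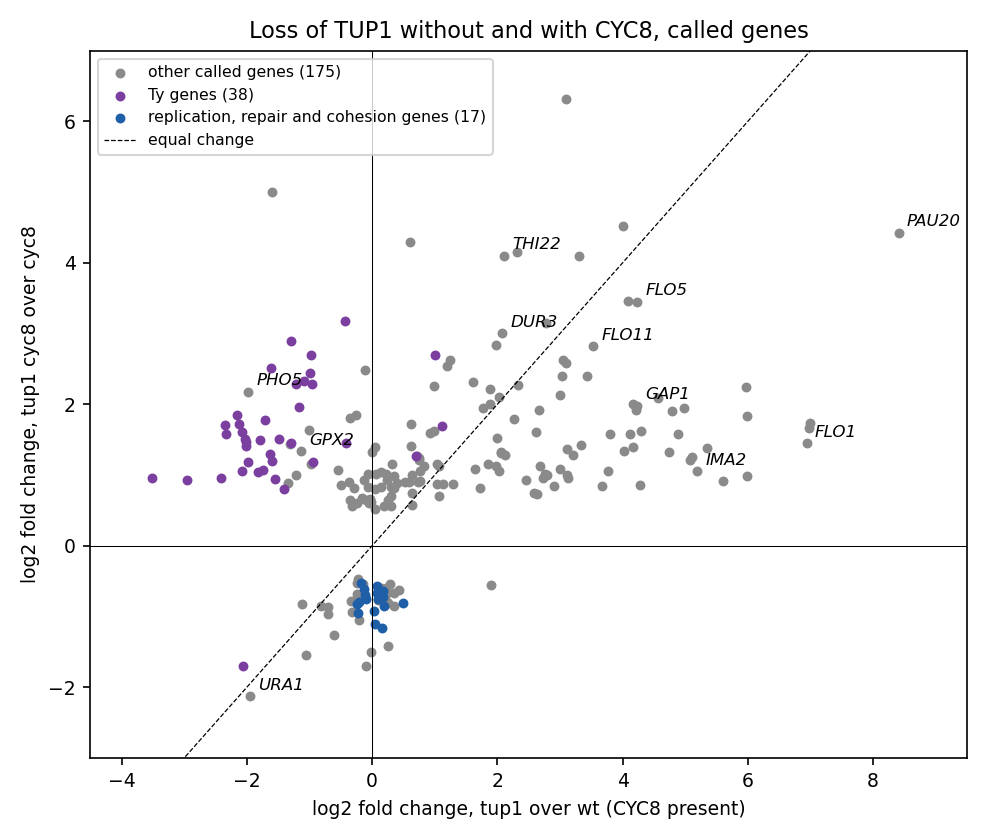
Log2 fold change of tup1 cyc8 over cyc8 (vertical) against that of tup1 over wt (horizontal) for the 230 called genes other than TUP1, CYC8 and URA3. Ty genes lie mostly at upper left, replication, repair and cohesion genes just left and right of 0 below the axis, and FLO1 and IMA2 far below the dashed line of equal change. The horizontal position of PAU20 rests on wt libraries of 0.618, 0.335 and 0 CPM.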

How the data were processed

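The authors trimmed reads with Trimmomatic 0.36, aligned them with STAR 2.5.2b and deposited raw counts of uniquely assigned reads per gene from featureCounts (Subread 1.5.2), 1 table a strain comparison. The strand setting and annotation release are not given in the sources used here. Tables were joined on gene name, and the unnamed line (0.123% to 0.307% of a library) was left out. Counts of all 12 libraries in 4 groups were filtered (filterByExpr), scaled by TMM and fitted with edgeR 4.0.16 (R 4.3.3), using quasi-likelihood tests with Benjamini-Hochberg adjustment and a call at 0.01. DESeq2 1.42.0 and the other fits under the closing section were alternatives. The procedure was tested on simulated data. Positions and sequences are from RefSeq R64, in which 6162 of 6400 names matched. Replicates are labelled as biological, without saying whether cultures were separate, so p-values measure the spread between these libraries. Named genes were the deleted and marker genes and their neighbours, up to 12 of the largest 2-fold changes in each direction (mean of at least 10 CPM, at most 10% repeated, strains not overlapping), genes the study singled out, and up to 4 called members a list with the smallest adjusted p. Any further gene was picked with its values in view. The members and lists were chosen with earlier results of these data known. A gene that met the rule is not reported here.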

Additional observations from a re-analysis of the deposited data

Results flagged for a closer look

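For each gene named under the rule for named genes, the difference of *tup1 cyc8* from *cyc8* was compared with that of *tup1* from wt in edgeR's quasi-likelihood test, and the genes below passed with adjusted p at or under 0.01. The values in parentheses are the difference of the log2 fold changes, *tup1 cyc8* over *cyc8* minus *tup1* over wt. Many of these genes were named for their change in *tup1 cyc8* over *cyc8*, which is a part of the difference tested. Among genes that carbon source or the cell wall governs, the difference was below 0 for *FLO1* (-5.48), *FLO9* (-4.70), *SUC2* (-2.82), *HXT13* (-2.30), *HXT15* (-3.31), *HXT17* (-2.67), *IMA1* (-3.86), *IMA2* (-4.13), *IMA5* (-2.16), *PAU20* (-3.98), *YPS6* (-2.68), *FDH1* (-4.16) and *TDH1* (-2.55), and above 0 for *PAU17* (1.84) and *PDC5* (0.87). Stress, damage and development genes below 0 were *RNR3* (-6.32), *DDR48* (-2.07), *GRE2* (-1.84), *HAL1* (-1.54) and *IME1* (-1.76), with *GPX2* (2.47) above 0. Of nutrient and transport genes, *GAP1* (-2.25), *GIT1* (-1.79), *PET18* (-1.91), *YCT1* (-2.71), *AQR1* (-1.48) and *PDR11* (-0.97) were below 0 and *DUR3* (0.92), *ENB1* (2.17), *PHO5* (4.16), *PHO12* (2.65), *SPL2* (2.60), *THI22* (1.99), *PDR5* (1.62), *QDR2* (1.06) and *LYS9* (1.27) above 0. The Ty genes were above 0: *YDR365W-B* (4.19), *YGR027W-B* (3.41), *YLR256W-A* (3.25) and *YPR158C-D* (3.62). Mating genes above 0 were *STE2* (0.89) and *SST2* (1.35). Replication and cohesion genes below 0 were *POL30* (-1.32) and *MCD1* (-1.15), and the other genes below 0 were *COS111* (-1.82), *COX13* (-1.01), *IDI1* (-0.86), *RPL15B* (-0.99), *RAD16* (-1.56) and *TIM9* (-1.11). The values for *PAU20* and *FDH1* rest on wt libraries at or near 0, with 0.618, 0.335 and 0 CPM for *PAU20* and 0.393, 0.335 and 0.163 CPM for *FDH1*, and their size depends on the fit. *RAD16* lies beside *CYC8*, and *TIM9* beside the native *URA3* locus, which is *ura3*Δ0 in every strain. *RNR3*, *COS111*, *COX13*, *RPL15B*, *RAD16* and *TIM9* were not called between *tup1 cyc8* and *cyc8*. No group had the 4 samples that a check for single outlying libraries needs.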

How the results depend on the processing

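The 185 higher and 48 lower genes became 344 and 171 with DESeq2, with 25 lower by 2-fold in place of 11 and 155 in place of 93 also higher in *tup1* than in wt. Scaling by library size alone gave 100 lower genes and 21 lower by 2-fold, and increases made up 60.8% of calls in place of 79.4%. A fit of the 6 libraries alone gave 12 lower genes. Testing against a 2-fold change (glmTreat) left 42 higher and 2 lower, so also 42 and 2 past 2-fold, 202 genes with a different effect of *TUP1* in place of 546, and 21 also higher in *tup1*. An adjusted p of at most 0.05 gave 397, 225, 27 lower by 2-fold, 1023 with a different effect and 179 also higher in *tup1*. Leaving out 1 library at a time gave 119 to 397 higher, 20 to 302 lower, 98 to 166 higher and 7 to 66 lower by 2-fold, 407 to 931 with a different effect, and 62 to 125 also higher in *tup1*; each upper end came without *cyc8* replicate 1, and why that library differs was not tested. Relative log expression factors, no filter and a minimum of 10 counts in every library kept every such count within 1.5 times. The deviations of same-numbered libraries had small positive correlations (0.0539, 0.0943 and 0.0322). Those of libraries with different numbers were all below 0, from -0.0872 to -0.00256, so a weak pairing is not excluded. The replicate block gave 185 higher and 42 lower, sharing 167 and 29 with the main calls. Of 82 called named genes none reversed; 60 were kept in the fit of the 6 libraries and without *cyc8* replicate 3, 28 against a 2-fold change and 82 with DESeq2. With 3 libraries of 1 strain a group, small decreases are the least certain, and the *cyc8* alleles and markers that differ between the strains cannot be told apart from the loss of *TUP1*. The list of replication, repair and cohesion genes and the MCB and SCB elements were chosen after seeing the data.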
